A study of Rattus norvegicus with 5 samples.

Results

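The GABA-B receptor, the glycine receptor and gephyrin were followed through *Gabbr1*, *Gabbr2*, *Glra1*, *Glra2*, *Glra3*, *Glrb* and *Gphn*, 7 of the 32883 genes in the count matrices, which were chosen by name. The study used single-nuclei RNA sequencing (snRNA-seq) of the ventral tegmental area (VTA), the midbrain region that holds the mesolimbic dopamine neurons, from 5 adult male Sprague-Dawley rats. Bilateral VTA punches of a rat made 1 library, so a rat was the replicate, and no treatment was compared. The sample labels give saline as the treatment of every rat and brain as the tissue, whereas the study's text speaks of drug-naïve rats. All comparisons below are therefore between cell classes within the same untreated or saline-treated tissue.

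GABA-B receptors are metabotropic receptors that work only as a pair: the subunit encoded by *Gabbr1* binds GABA, and the subunit encoded by *Gabbr2* couples to G proteins of the inhibitory family and brings the pair to the cell surface. In dopamine neurons of the midbrain they are known to open inwardly rectifying potassium channels and to slow firing. Glycine receptors are chloride channels built from alpha subunits (*Glra1*, *Glra2*, *Glra3*), which bind glycine, and a beta subunit (*Glrb*), which ties the channel to gephyrin (*Gphn*), the scaffold of inhibitory synapses and also an enzyme of molybdenum cofactor synthesis.

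A barcode counted as a nucleus with at least 1000 unique molecular identifiers (UMIs), more than 200 and fewer than 5000 genes and under 5% of UMIs from mitochondrial genes. This rule kept 22084 nuclei, 1813 to 9336 per rat, of which 1068 were removed as likely doublets. Clusters were named only from marker genes, so the classes are dopamine-like, GABA-like and so on, and the suffix is left out below. Of 15683 named nuclei, 1268 were dopamine, 2301 GABA and 512 glutamate neurons. The remainder comprised 8883 oligodendrocytes, 934 of their precursor cells (OPCs), 767 astrocytes, 631 microglia and 387 nuclei of vessels (vascular). A class entered the comparisons in a rat with at least 20 nuclei, which left 4 rats for dopamine neurons, OPCs, astrocytes and vascular nuclei, 3 for glutamate neurons and 5 for the others. In the dopamine and GABA classes the defining markers went with the names: *Th*, the rate-limiting enzyme of dopamine synthesis, averaged 6.26 UMIs per 10000 in dopamine neurons and 0.610 in GABA neurons, while *Gad2*, which makes GABA, averaged 3.11 in GABA neurons and 0.342 in dopamine neurons. *Gad2* was also at 3.10 in the OPC class. *Slc17a6*, the vesicular glutamate transporter, averaged 1.51 in glutamate, 0.570 in GABA and 0.295 in dopamine neurons. The GABA class was least clear in rat 1. There its 3 glutamate markers summed to 1.46 UMIs per 10000, against 0.183 to 0.800 in the other rats and 1.93 to 2.65 in glutamate neurons. Its 3 GABA markers summed to 4.36, against 5.12 to 9.39 in the other rats. The part of this in the GABA values of rat 1 was not tested. The glutamate class also held more of the serotonin neuron markers *Tph2* and *Slc6a4* than GABA neurons (log2 differences of GABA minus glutamate of -2.77 and -1.71, adjusted p = 1.13e-04 and 0.00585 in edgeR) and than dopamine neurons (-1.68 and -1.63, adjusted p = 0.0173 and 0.00700). Their part in the results on glutamate neurons was not tested. Markers went against the name in the microglia of rat 3 and in 175 nuclei of the OPC class, both described below.

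The library of rat 3 stood apart. Its nuclei were shallow (median 1605.5 UMIs, against 1829.0 to 3526.0 in the other rats) and most of them formed clusters of their own. In its GABA neurons 46.1% of UMIs came from genes longer than 100 kb, against 51.1% to 56.0% in the other rats. In its oligodendrocytes the share was 40.4%, within the 37.1% to 46.7% of the other rats. Rat 3 gave no glutamate, OPC, astrocyte or vascular sum, and its value is printed beside the neuronal means, with the mean without it where it was far from the other rats. In rat 1, 3121 of the 5218 barcodes with at least 1000 UMIs were removed for their mitochondrial share (3514 of 13176 in rat 2, and 18 to 411 in rats 3 to 5), and 943 of its 1813 nuclei fell in an unnamed cluster of 964 nuclei and entered no class. Between 0 and 16 barcodes were shared by any pair of libraries. Free RNA, read from barcodes under 100 UMIs, is given beside the levels because it enters every droplet. At the same low rank of barcodes in each library, a barcode held 558, 218 and 260 UMIs in rats 2, 4 and 5. It held 22 in rats 1 and 3. In rats 2, 4 and 5 the profile may therefore leave out droplets without a nucleus. The effect of this on the readings against free RNA was not tested.

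Levels are UMIs of a gene per 10000 UMIs of a class, as mean ± SD over rats, and were compared between classes but not between genes. The plot of levels by class shows all 7 genes.

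**Figure D1:**
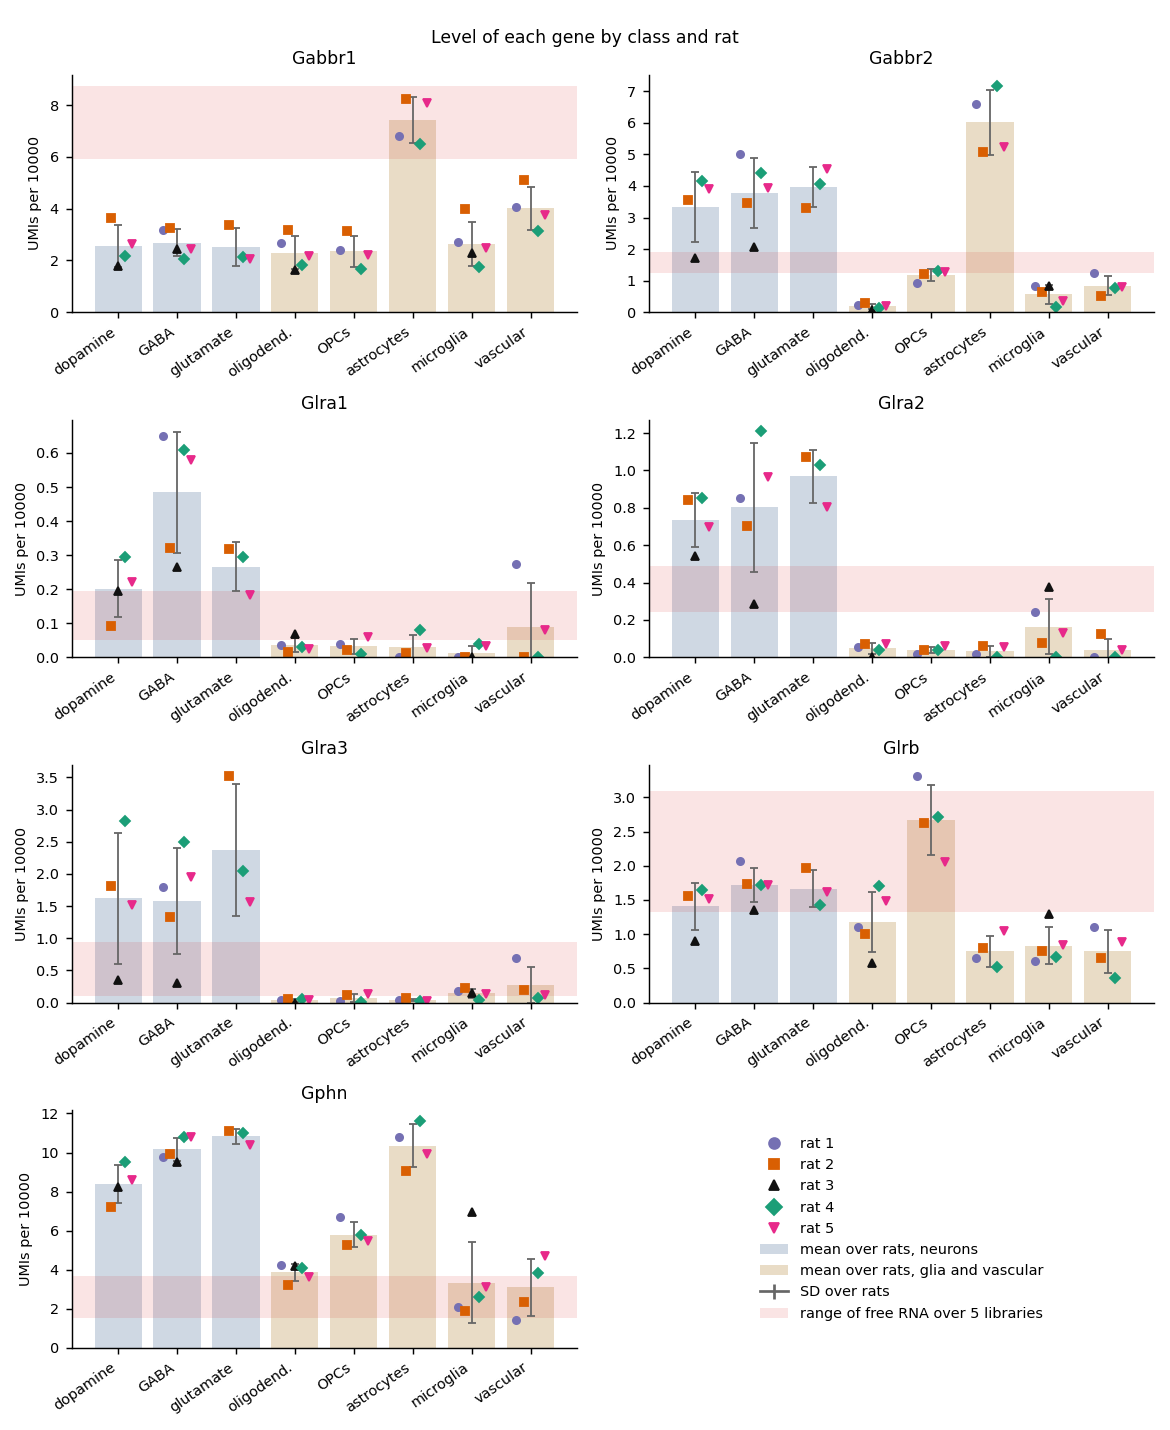
Level of each gene (UMIs per 10000 UMIs of the class) in the 8 cell classes. Bars are means over rats, error bars SD over rats, points single rats, and the red band the range of free RNA over the 5 libraries. *Gabbr1* and *Gabbr2* were highest in astrocytes, *Glra1*, *Glra2* and *Glra3* in neurons, *Glrb* in the OPC class, and *Gphn* in neurons and astrocytes.

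The GABA-B subunit genes were not confined to neurons in this tissue, and both were highest in astrocytes. *Gabbr2* averaged 6.02 ± 1.03 UMIs per 10000 in astrocytes (6.60, 5.07, 7.17 and 5.23 in rats 1, 2, 4 and 5). It was lower in each neuronal class, with 3.97 ± 0.638 in glutamate neurons (n = 3), 3.78 ± 1.11 in GABA neurons (n = 5) and 3.33 ± 1.10 in dopamine neurons (n = 4). Dopamine neurons held 3.57, 1.72, 4.16 and 3.89 in rats 2, 3, 4 and 5, and GABA neurons 5.02, 3.45, 2.08, 4.42 and 3.94 in rats 1 to 5. Rat 3 was lowest in both, and without it the means were 3.87 ± 0.295 and 4.21 ± 0.669. OPCs followed at 1.18 ± 0.177, above the free RNA of their own library in 1 of 4 rats. Vascular nuclei (0.836 ± 0.294), microglia (0.572 ± 0.297) and oligodendrocytes (0.186 ± 0.0875) were below it in every rat.

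*Gabbr1* had a different shape. Astrocytes held 7.41 ± 0.884 UMIs per 10000 (6.81, 8.25, 6.50 and 8.08 in rats 1, 2, 4 and 5), above every other class in each of these rats. Vascular nuclei were next at 4.01 ± 0.822, below the free RNA of their library in every rat. The estimate of free RNA in vascular sums ran from 28.8% to 50%, the cap set on the estimate, so this place is not read as a trait of their nuclei. The remaining 6 classes lay close together between 2.30 ± 0.633 in oligodendrocytes and 2.68 ± 0.522 in GABA neurons. In dopamine neurons the values were 3.63, 1.78, 2.17 and 2.65 in rats 2 to 5, which overlapped those of GABA neurons (3.19, 3.27, 2.46, 2.06 and 2.44) and of oligodendrocytes (2.68, 3.18, 1.62, 1.84 and 2.19). With 5, 4 or 3 rats such a test cannot give a p below 0.063, 0.13 or 0.25, so none of the 49 neighbour pairs of the 7 genes in order of level could pass after adjustment. The order within these 6 classes is therefore not settled. Dopamine exceeded glutamate neurons by 0.299 UMIs per 10000 (SD 0.271), in 3 of 3 rats.

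Free RNA was richer in *Gabbr1* than nearly all nuclei. It held 8.74, 7.93, 7.04, 5.92 and 6.38 UMIs of *Gabbr1* per 10000 in rats 1 to 5, above the nuclei of every class in every rat except astrocytes, which were higher in 3 of 4 rats. After thinning each nucleus to 1000 UMIs, at least 1 UMI of *Gabbr1* was found in 27.0% of dopamine, 23.9% of GABA and 22.2% of glutamate neurons. Shares here and below pool nuclei over rats. The share was 26.5% in microglia, 22.0% in oligodendrocytes and 51.4% in astrocytes (exact 95% binomial interval 47.8% to 55.0%, which covers counting error only). No class here can be taken to lack *Gabbr1*, so these shares have no background to be read against, and no expression was read from them alone. For *Gabbr2* the thinned shares were 26.2%, 28.3% and 28.3% in dopamine, GABA and glutamate neurons and 39.9% in astrocytes, against 3.8% in microglia. Before thinning, with median depths of 4207.0, 6827.0, 7544.0, 3909.0 and 2021.0 UMIs, the shares for *Gabbr2* were 61.6%, 77.6%, 83.4%, 75.9% and 9.83%.

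The ratio of *Gabbr2* to *Gabbr1* UMIs, in which the total of a sum cancels, differed between classes. It averaged 1.33 in dopamine, 1.45 in GABA and 1.69 in glutamate neurons, 0.834 in astrocytes, 0.532 in OPCs, 0.223 in microglia and in vascular nuclei, and 0.0793 in oligodendrocytes. Not all classes were apart: astrocytes, at 0.614 to 1.10, overlapped all 3 neuronal classes and OPCs (0.381 to 0.773). The neuronal ranges were 0.966 to 1.92 in dopamine, 0.845 to 2.15 in GABA and 0.981 to 2.19 in glutamate neurons. Free RNA itself had a ratio of 0.218, 0.160, 0.227, 0.305 and 0.194 in rats 1 to 5, and both genes were below free RNA in all microglial and vascular sums, so the 0.223 of these 2 classes is not read as a trait of their nuclei. Both genes were also below free RNA in all oligodendrocyte sums. In OPCs *Gabbr1* was below it in every rat and *Gabbr2* in all rats but 1. For counts of rats and exact tests, neurons in rat 1 were its GABA neurons alone, the class described above as least clear there. In rat 3 they were dopamine and GABA neurons. Neurons exceeded oligodendrocytes by 4.14 ± 0.47 on the log2 scale, higher in 5 of 5 rats, and microglia by 2.79 ± 1.15, also in 5 of 5 (exact sign-flip permutation test over rats, two-sided, p = 0.063 for each, the smallest that 5 rats allow). The microglial sums are those not read as a trait, and they include rat 3, whose microglia are questioned below. With free RNA subtracted, the edgeR difference from oligodendrocytes went from 3.70 to 12.34 for *Gabbr2* and from -0.33 to 0.86 for *Gabbr1*. The size of the 4.14 is therefore not settled. Neurons exceeded astrocytes by 0.92 ± 0.34 and OPCs by 1.59 ± 0.32 in 4 of 4 rats each (exact test, p = 0.13, the smallest for 4 rats). Over the 18 comparisons of this ratio and the next these p-values became 0.205 after Benjamini-Hochberg adjustment of the exact tests, so none passed. Between dopamine and GABA neurons the ratio differed by -0.05 ± 0.17 with 1 of 4 rats higher (exact test, p = 0.625).

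**Figure D2:**
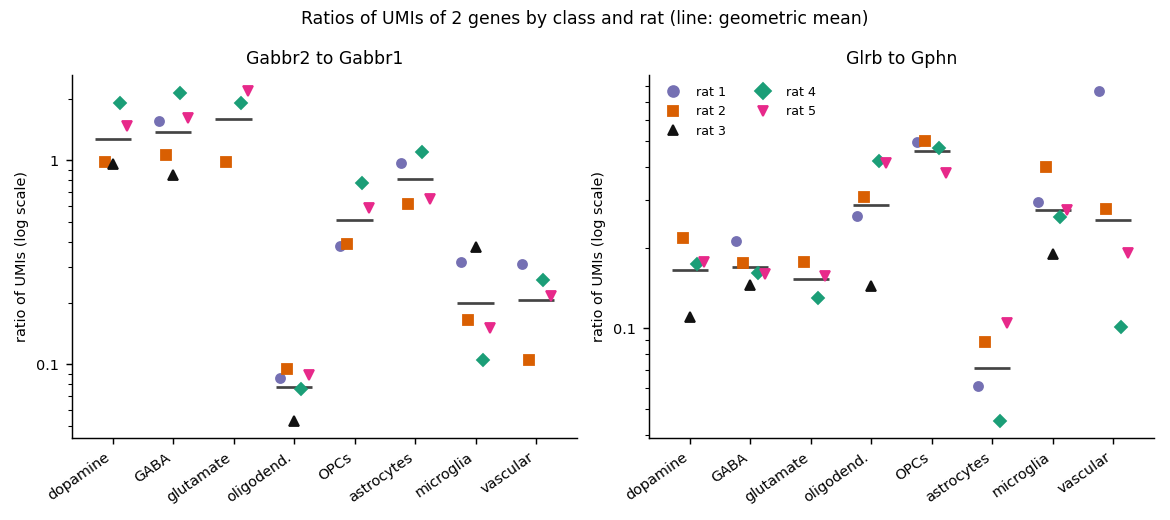
Ratio of the UMIs of *Gabbr2* to *Gabbr1* (left) and of *Glrb* to *Gphn* (right) in each cell class, on a log axis. Points are single rats (rat 3 as a black triangle) and lines geometric means. The *Gabbr2* to *Gabbr1* ratio lay between 0.845 and 2.19 in all neuronal sums and between 0.0526 and 0.0945 in oligodendrocytes.

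The alpha subunits of the glycine receptor had higher levels than free RNA in every neuronal sum, whereas glial and vascular sums stayed below it except for those named next. In the GABA neurons of rat 3, *Glra2* was at 0.283 from 17 UMIs against 0.274 in free RNA. That sum is not read as above free RNA. *Glra1*, the main adult subunit of brainstem and spinal cord, averaged 0.485 ± 0.177 UMIs per 10000 in GABA neurons (0.650, 0.322, 0.266, 0.608 and 0.580 in rats 1 to 5, from 761 UMIs in all). Dopamine neurons held 0.201 ± 0.0838 (0.0926, 0.196, 0.296 and 0.220 in rats 2 to 5, 129 UMIs) and glutamate neurons 0.265 ± 0.0721 (0.319, 0.294 and 0.184 in rats 2, 4 and 5, 117 UMIs). The dopamine value was below the GABA value of the same rat in every rat, although the ranges of the 2 classes overlapped. Without rat 3 the GABA mean was 0.540 ± 0.148. No glial class averaged more than 0.0353, against 0.112 in free RNA, and vascular nuclei exceeded free RNA in 2 rats on 4 and 2 UMIs.

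*Glra2*, the subunit that dominates in the developing brain, showed no such split. It averaged 0.969 ± 0.141 in glutamate neurons (1.07, 1.03 and 0.807), 0.804 ± 0.346 in GABA neurons (0.854, 0.704, 0.283, 1.21 and 0.965) and 0.734 ± 0.145 in dopamine neurons (0.843, 0.542, 0.851 and 0.699). Rat 3 was lowest in both of its neuronal sums, which averaged 0.934 ± 0.215 and 0.798 ± 0.0853 without it, and the 3 classes overlapped. Oligodendrocytes, OPCs, astrocytes and vascular nuclei averaged 0.0338 to 0.0487, and in microglia only rat 3, at 0.378 from 5 UMIs, exceeded its free RNA.

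*Glra3* was the alpha subunit with the widest spread between rats. In dopamine neurons it was 1.82, 0.346, 2.82 and 1.51 UMIs per 10000 in rats 2 to 5. In GABA neurons it was 1.79, 1.33, 0.300, 2.49 and 1.96 in rats 1 to 5, and in glutamate neurons 3.52, 2.04 and 1.56 in rats 2, 4 and 5. Rat 3 was again far below the others, and without it the dopamine mean rose from 1.63 ± 1.02 to 2.05 ± 0.684 and the GABA mean from 1.57 ± 0.825 to 1.89 ± 0.481. The free RNA of rat 3 was also the lowest, at 0.107 against 0.277 to 0.934. Glial means were 0.0369 to 0.146, and 1 microglial and 1 vascular sum exceeded their free RNA.

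At least 1 alpha subunit was found in 45.1% of dopamine, 57.3% of GABA and 70.9% of glutamate neurons, against 5.86% of microglia. Thinned to 1000 UMIs, the shares were 17.5%, 19.2% and 30.7%, against 2.38% of microglia and 1.42% of oligodendrocytes. All these shares pool nuclei over rats, and the classes differed in their rats. Rat 3, low in *Glra3*, gave 316 of the 1268 dopamine, 328 of the 2301 GABA and 2 of the 512 glutamate nuclei. Rat 2 gave 298 of the glutamate nuclei. The part of this in the order of the classes was not tested. In the data as deposited, *Glrb* was found in 67.1% of GABA neurons with an alpha subunit and 48.3% of those without, in 60.7% and 29.7% of dopamine neurons and in 70.5% and 59.7% of glutamate neurons. Those with an alpha subunit were deeper, with median UMIs of 8256.5 against 4699.0, 8142.5 against 2289.5 and 8124.0 against 6828.0 in these classes. Thinned, the shares were 17.0% and 15.8%, 14.9% and 11.7%, and 14.0% and 14.9%. Thinning lowers every share and moves nuclei to the group without an alpha subunit, so the gaps cannot be compared before and after it, and the part of depth in them was not tested.

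*Glrb*, the beta subunit, was not confined to neurons. GABA neurons held 1.72 ± 0.249 UMIs per 10000 (2.07, 1.74, 1.36, 1.72 and 1.72), glutamate neurons 1.67 ± 0.267 (1.96, 1.43 and 1.61) and dopamine neurons 1.41 ± 0.340 (1.56, 0.904, 1.65 and 1.51). Without rat 3 the GABA and dopamine means were 1.81 ± 0.172 and 1.57 ± 0.0697. Oligodendrocytes followed at 1.18 ± 0.438, or 1.33 ± 0.331 without rat 3, with microglia (0.831 ± 0.269), astrocytes (0.751 ± 0.226) and vascular nuclei (0.746 ± 0.318) lower. The highest class was the OPCs, at 2.68 ± 0.512 (3.31, 2.62, 2.71 and 2.06 in rats 1, 2, 4 and 5), above the GABA neurons of the same rat in 4 of 4 rats. Free RNA held 1.82, 1.38, 3.10, 1.75 and 1.32 in rats 1 to 5. The OPC class was the only class above it in every rat with a sum, but it had no sum in rat 3, where free RNA was highest. GABA neurons were above it in 3 of 5 rats, glutamate neurons in 2 of 3, dopamine neurons in 2 of 4 and oligodendrocytes in 1 of 5. Astrocytes, microglia and vascular nuclei were below it in every rat.

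The high *Glrb* of the OPC class lay in a small part of it. When the mean of each library was removed before clustering, 175 of the 934 nuclei moved to another class. These held little *Pdgfra*, the receptor that defines OPCs (0.242 ± 0.164), but much *Bcas1* (107 ± 13.4) and *Enpp6* (13.2 ± 2.82), known as genes of newly forming oligodendrocytes. Their *Glrb* level was 5.53 ± 1.0 (6.54, 5.27, 6.06 and 4.25 in rats 1, 2, 4 and 5), whereas the 759 nuclei that stayed OPCs, with *Pdgfra* at 10.1 ± 0.885, held 1.55 ± 0.105 (1.66, 1.49, 1.44 and 1.63). The ranges did not overlap, and the 759 nuclei were below the free RNA of their library in rats 1 (1.82) and 4 (1.75). *Gabbr2* went the other way, with 0.276 ± 0.225 in the 175 nuclei and 1.53 ± 0.164 in the 759, and *Gphn* was 4.06 ± 1.22 and 6.39 ± 0.548.

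Among oligodendrocytes, *Glrb* also varied by cluster. The clusters led by *Bace2* and *Arhgef37* (951 and 581 nuclei) held 0.352 ± 0.187 (n = 4) and 0.175 ± 0.0703 (n = 3). Among clusters of several rats, those with more *Opalin*, a gene of mature myelin, held 1.18 ± 0.607 to 2.50 ± 1.04. *Enpp6* was 5.84 and 6.75 in the first pair of clusters and 0.389 to 2.53 in the latter. The order of these groups along the lineage was not tested. These groups, *Enpp6* and *Bcas1* were chosen after their values were seen, so the values are a description with no test.

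**Figure D3:**
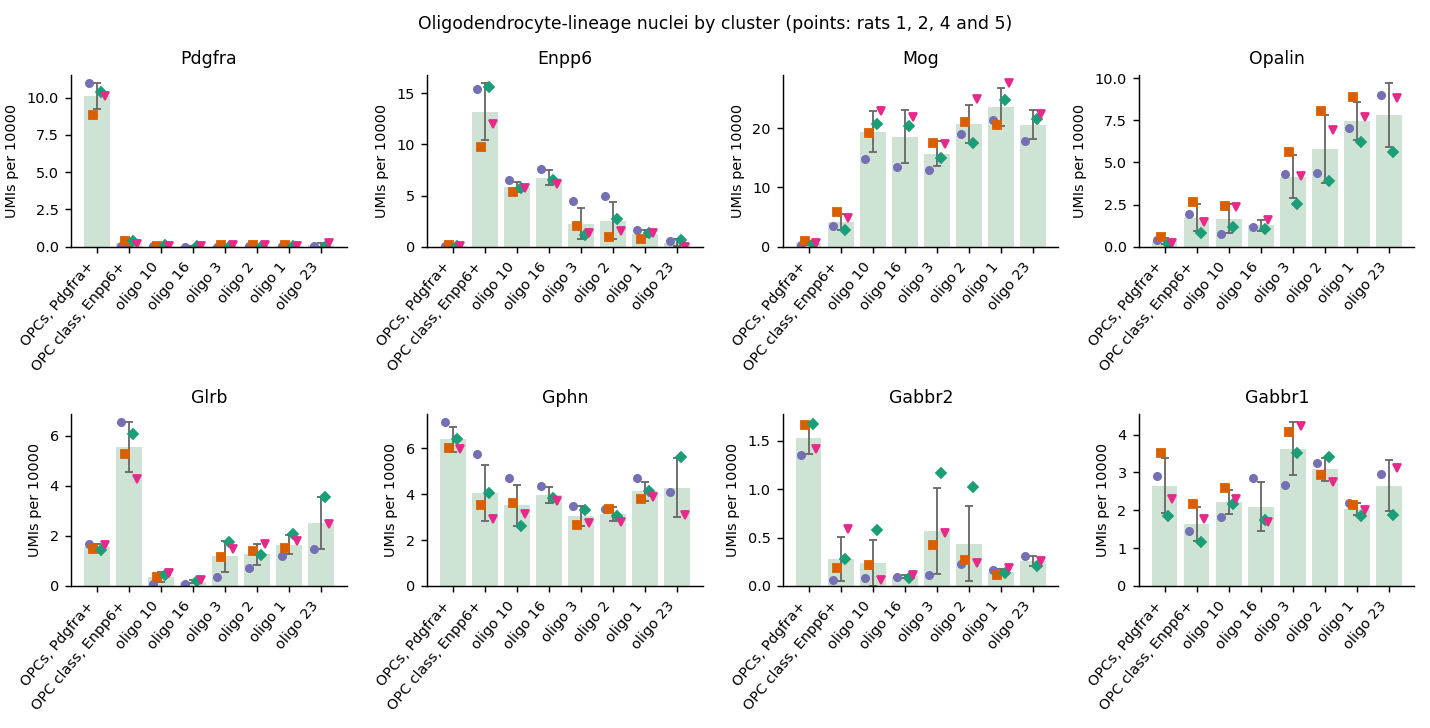
Levels (UMIs per 10000) of 4 lineage genes (top) and of *Glrb*, *Gphn*, *Gabbr2* and *Gabbr1* (bottom) in the OPC nuclei that kept their class, in the 175 that did not (OPC class, Enpp6+), and in the oligodendrocyte clusters by number. Bars are means, error bars SD, points rats 1 (circle), 2 (square), 4 (diamond) and 5 (triangle) with at least 10 nuclei. *Glrb* was highest in the 175 nuclei with *Enpp6* and lowest in clusters 10 and 16.

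*Gphn* was high in neurons and in astrocytes alike. Glutamate neurons held 10.8 ± 0.378 UMIs per 10000 (11.1, 11 and 10.4), astrocytes 10.4 ± 1.11 (10.8, 9.05, 11.6 and 9.95) and GABA neurons 10.1 ± 0.592 (9.78, 9.92, 9.49, 10.8 and 10.8). Dopamine neurons were at 8.39 ± 0.957 (7.21, 8.25, 9.53 and 8.58), below the GABA neurons of the same rat in 4 of 4 rats, by 0.17 to 0.46 on the log2 scale. OPCs held 5.79 ± 0.624, oligodendrocytes 3.85 ± 0.427, microglia 3.33 ± 2.08 and vascular nuclei 3.09 ± 1.47. Free RNA held 1.5 to 3.69, and all neuronal, astrocyte, OPC and oligodendrocyte sums were above the free RNA of their rat.

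The ratio of *Glrb* to *Gphn* was lower in neurons (0.169, 0.170 and 0.154 in dopamine, GABA and glutamate neurons) than in oligodendrocytes (0.310) and in the OPC class (0.461), and lowest in astrocytes (0.0750). In free RNA it was 0.474 to 2.07. The OPC value mixed unlike nuclei: with UMIs pooled over rats, the ratio was 0.245 in the 759 nuclei that stayed OPCs and 1.41 in the 175 that moved. The log2 difference between OPCs and oligodendrocytes went from 0.41 to -0.32 with the libraries centred. It was lower in neurons than in oligodendrocytes in 5 of 5 rats, by -0.80 ± 0.58 on the log2 scale (exact sign-flip permutation test, two-sided, p = 0.063), and higher than in astrocytes in 4 of 4 rats, by 1.32 ± 0.56 (exact test, p = 0.13). Both are the smallest p that these numbers of rats allow. Against microglia it was lower in 5 of 5 rats (-0.73 ± 0.23), but the sign turned with free RNA subtracted (0.84).

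The 6.96 of rat 3 set the microglial mean of *Gphn*. The microglia of rats 1, 2, 4 and 5 held 2.11, 1.88, 2.62 and 3.10, a mean of 2.43 ± 0.543. The 62 microglia of rat 3 had a summed level of the 8 microglial markers of 15.9 UMIs per 10000, with 1 marker at 0, against 43.4 to 63.9 in the other rats. Their *Cx3cr1*, a chemokine receptor of microglia, was 0.302 against 4.31 to 6.16, and their 8 neuronal markers summed to 22.1 against 7.77 to 14.8, with 1 of them at 0, as against 0 to 2 in the other rats. The class had 7 nuclei in rat 3 with doublets kept, 12 with nuclei typed by their own markers and 4 with nuclei of at least 2000 UMIs, too few for a sum, and 44 with the libraries centred. Whether these 62 nuclei are microglia is therefore not settled, and the part of their markers in the *Gphn* value was not tested.

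Differences between classes were tested on the summed counts with edgeR's quasi-likelihood test, the rat as a block and Benjamini-Hochberg adjustment over the 12352 genes that passed a filter on low counts, which all 7 genes did. All classes stood in 1 fit, so the contrasts share their sums and are not independent. Log2 differences carry the SE of the fit, and a gene was called at an adjusted p under 0.05. The 7 genes were left out of the genes that formed the clusters, although genes that vary with them were not.

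Between dopamine and GABA neurons, 1 of the 7 genes was called, about the share of all genes tested that were (14.3%). *Glra1* was lower in dopamine neurons by a log2 difference of -1.21 (SE 0.26, adjusted p = 7.10e-04), lower in 4 of 4 rats, and by -1.36 without rat 3 (adjusted p = 4.14e-04). The difference kept its size but not its call without the rat as a block (-1.22, adjusted p = 0.123) and with free RNA subtracted (-1.17, adjusted p = 0.375). It is a difference of class sums: 3 GABA sub-clusters, described below, held 48.4% of the GABA nuclei and 54.8% of their UMIs, but 89.9% of their *Glra1* UMIs. It need not hold for the GABA neurons outside these sub-clusters, which were not tested apart and include all GABA nuclei of rat 3. Of the markers of other cell types, 1 of 5 OPC (*Ptprz1*, 1.48), 1 of 8 astrocyte (*Slc1a3*, 0.81) and 2 of 8 vascular markers (*Flt1*, 1.32, and *Slco1a4*, 1.08) were called as higher in dopamine neurons in the same contrast, and 0 of 8 oligodendrocyte and 0 of 8 microglial markers. The OPC markers summed to 6.30 to 7.34 UMIs per 10000 in dopamine and 2.10 to 3.75 in GABA neurons, the astrocyte markers to 1.57 to 3.46 and 0.939 to 3.48, and the vascular markers to 0.0603 to 0.425 and 0.0998 to 0.286. Their part in the *Glra1* difference was not tested. The other 6 genes differed by -0.26 (*Gphn*, SE 0.21) to 0.14 (*Glra3*, SE 0.24), with adjusted p of 0.532 or more. None of the 7 was called between dopamine and glutamate neurons, where 9.94% of genes were, or between GABA and glutamate neurons, where 2.15% were. DESeq2 called 0 of the 7 in both as well, and at an unadjusted p under 0.05 edgeR gave 0 and 1. The 1 was *Glra1* between GABA and glutamate neurons (0.65, SE 0.28, adjusted p = 0.462). This value reached 1.24, and was then called, without rat 2. Between dopamine and glutamate neurons *Glra1* was called in 1 of the 16 alternative settings, when nuclei were typed by their own markers.

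Against oligodendrocytes, 6 of the 7 genes were called in neurons, 5 of them higher, among 77.1% of all genes. *Glra3* was higher by 4.90 (SE 0.28), *Gabbr2* by 3.70 (SE 0.22), *Glra2* by 3.35 (SE 0.24), *Glra1* by 3.08 (SE 0.27) and *Gphn* by 0.86 (SE 0.18), all with an adjusted p of 4.89e-05 or less in edgeR. The sizes depend on free RNA, since the oligodendrocyte sums of the 3 alpha subunits and *Gabbr2* lay below it in every rat: with free RNA subtracted the differences were 11.51, 12.34, 6.13, 5.28 and 1.32 in the same order, all called. Those of genes left with few counts are not read as folds. The median of all genes stood at -0.32 in this contrast under the default scaling, at 0.06 under median-of-ratio size factors and at 0.20 without scaling beyond the total. The share of called genes that were higher in neurons was 36.6%, 53.9% and 61.5% under these scalings. *Gabbr1*, called as lower at -0.33 (SE 0.11, adjusted p = 0.00626), therefore sat at the median of all genes. It was at 0.02 and 0.17 under the other scalings, was called as lower in 1 of the 16 alternative settings (-0.34 with doublets kept) and as higher in 1 (0.86 with free RNA subtracted, adjusted p = 0.0459), and its level was higher in neurons in 5 of 5 rats. *Glrb* was not called (-0.13, SE 0.16, adjusted p = 0.444), with a positive sign under the other scalings. It was 0.24 under median-of-ratio size factors, and 0.39 without scaling beyond the total, where it was called as higher in neurons (adjusted p = 0.0220).

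Against OPCs, 6 of the 7 were called (background 49.6%): the 3 alpha subunits were higher in neurons by 3.23 to 4.55, *Gabbr2* by 1.57 (SE 0.21) and *Gphn* by 0.52 (SE 0.19, adjusted p = 0.0244). With free RNA subtracted the alpha subunits stood at 4.10 to 7.90 and *Gabbr2* at 1.93. *Glrb* was lower in neurons by -0.84 (SE 0.17, adjusted p = 1.13e-04). *Glrb* was not called with the libraries centred, which moved the 175 nuclei described above out of the class (0.05), with nuclei of at least 2000 UMIs (-0.07) or with free RNA subtracted (-0.74, adjusted p = 0.0761). *Gphn* was not called without the rat as a block (0.61, adjusted p = 0.0652) or with free RNA subtracted (0.63, adjusted p = 0.105). *Gabbr1* was not called (0.05, SE 0.12). The median of all genes was -0.11 here, and the share of called genes higher in neurons was 42.1%, or 55.7% without scaling beyond the total.

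Against astrocytes, 6 of the 7 were called (background 57.3%), and the GABA-B and glycine receptor genes went opposite ways. *Gabbr1* was lower in neurons by -1.67 (SE 0.11, adjusted p = 5.14e-15) and *Gabbr2* by -0.77 (SE 0.18, adjusted p = 3.50e-04), each beyond the median of all genes of -0.14. *Gabbr1* was lower in 4 of 4 rats and was called in all 16 alternative settings, *Gabbr2* in 15, the exception being free RNA subtracted (-0.79, adjusted p = 0.0863). *Glra3* was higher in neurons by 5.28 (SE 0.41), *Glra2* by 4.13 (SE 0.40), *Glra1* by 3.41 (SE 0.47) and *Glrb* by 0.93 (SE 0.21, adjusted p = 2.31e-04). These 4 were below free RNA in the astrocytes of all 4 rats, and with it subtracted the differences were 11.56, 10.23, 4.30 and 1.51, all called. *Gphn* was not called (-0.33, SE 0.18, adjusted p = 0.124). The share of called genes higher in neurons was 42.2%, or 54.6% without scaling beyond the total.

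Against microglia, 6 of the 7 were higher in neurons (background 60.8%), from 0.99 (SE 0.23) for *Glrb* and 1.65 (SE 0.20) for *Gphn* to 4.0 (SE 0.64) for *Glra1*, which rested on 3 UMIs in microglia. Without rat 3 the value for *Gphn* was 2.22. With free RNA subtracted these 3 were at 2.56, 2.09 and 8.73, and *Gabbr2* went from 2.87 to 5.17. *Gabbr1* was not called (-0.05, SE 0.12, adjusted p = 0.773), but it was called as higher in neurons in 3 of the 16 alternative settings, at 3.31 with free RNA subtracted (adjusted p = 9.86e-06). The estimate of free RNA in neuronal sums ran from 3.75% to 16.2% and in microglial sums from 15.7% to 50%, the cap set on the estimate.

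**Figure D4:**
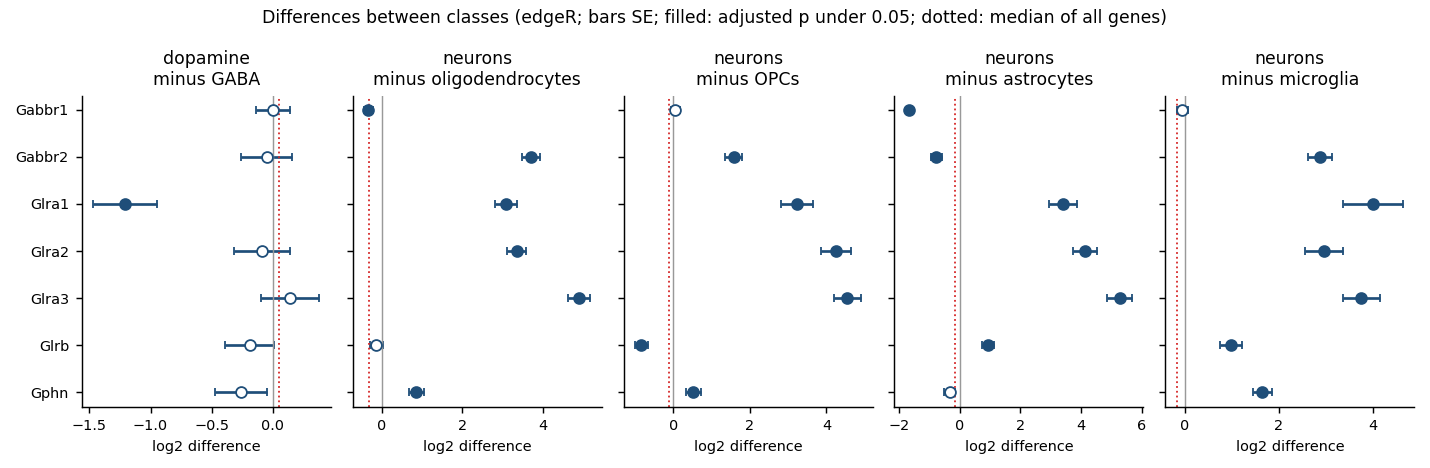
Log2 differences of the 7 genes in 5 contrasts from 1 edgeR fit. Points are estimates, error bars SE, filled points an adjusted p under 0.05, and the dotted red line the median of all 12352 genes tested. *Glra1* was the 1 gene of the 7 called between dopamine and GABA neurons, and *Gabbr1* and *Gabbr2* lay to the left of 0 against astrocytes.

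Among glia, 3 of the 7 were called between OPCs and oligodendrocytes (background 51.9%) and 4 of 7 between astrocytes and oligodendrocytes (background 52.6%). *Gabbr2* was higher than in oligodendrocytes by 2.13 (SE 0.24) in OPCs and by 4.47 (SE 0.24) in astrocytes. With free RNA subtracted, which the oligodendrocyte sums of *Gabbr2* did not reach in any rat, these were 10.41 and 13.12, so their size is not settled. *Gabbr1* and *Glrb* also moved by over 1.5 times, to 2.69 in astrocytes and 1.28 in OPCs, and *Glra3* was then called between OPCs and oligodendrocytes (5.88, adjusted p = 0.00214). *Gabbr1* was higher in astrocytes by 1.33 (SE 0.14, adjusted p = 1.79e-10), and so was *Gphn* by 1.20 (SE 0.21, adjusted p = 1.17e-05). *Glrb* was lower in astrocytes by -1.06 (SE 0.22, adjusted p = 1.40e-04) and higher in the OPC class by 0.70 (SE 0.20, adjusted p = 0.00329), the former not called with free RNA subtracted (-0.97, adjusted p = 0.0671) and the latter at -0.02 with the libraries centred and 0.08 with nuclei of at least 2000 UMIs. The call of *Gabbr1* as lower in OPCs (-0.38, SE 0.14, adjusted p = 0.0235) held in 1 of the 16 alternative settings and was lost without each single rat, while *Gphn* (0.34, adjusted p = 0.185) was called in 7. The medians of all genes were -0.24 and -0.20. The shares of called genes that were higher than in oligodendrocytes were 38.5% and 40.4%, or 65.0% and 61.8% without scaling beyond the total.

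To give the levels below the transmitter classes, neurons were clustered again alone, and 12 of the 31 sub-clusters had at least 20 nuclei in 3 or more rats. They are called by number and by the 3 genes that lead them by fold. The 7 genes were again left out of the clustering, and the values are a description with no test, since sub-clusters are not held in the same rats.

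*Glra1* was concentrated in 3 GABA sub-clusters, which held no nuclei of rat 3. All 328 GABA nuclei of rat 3 lay in other sub-clusters. Sub-clusters 2 (*Npas1*, AABR07048856.1, *Angpt1*), 3 (*Tafa4*, *Npas1*, LOC102553190) and 11 (AABR07071294.2, *Ikzf1*, *Sox14*) held 1113 of the 2301 GABA neurons (48.4%) and 54.8% of their UMIs, but 684 of the 761 *Glra1* UMIs (89.9%). Sub-cluster 3 averaged 0.953 ± 0.426 UMIs per 10000 (1.44, 0.663 and 0.754 in rats 1, 2 and 5), and *Glra1* was itself among its leading genes. Sub-cluster 2 averaged 0.712 ± 0.224 (0.467, 0.907 and 0.762 in rats 1, 4 and 5). Only the value of rat 1 placed sub-cluster 3 above sub-cluster 2, and with UMIs pooled over rats the levels were 0.765 and 0.804, so their order is not settled. Both were led by *Npas1* but came largely from different rats. Sub-cluster 2 held 15, 221 and 231 nuclei of rats 2, 4 and 5, and sub-cluster 3 held 298, 10 and 51. Neuron type and rat cannot be told apart between them. GABA sub-cluster 13 (*Slc26a7*, *Npsr1*, *Wnt2*) was lowest, at 0.0558 ± 0.0616 from 7 UMIs in 194 nuclei. The same 3 sub-clusters held 83.7% of the *Glra3* UMIs of the class, but 57.9% of *Glra2*, 58.7% of *Glrb* and 59.0% of *Gphn*, close to their share of all UMIs.

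The alpha subunits did not peak in the same sub-clusters. *Glra3* was highest in sub-cluster 11, at 4.50 ± 0.257 (4.53, 4.75 and 4.23 in rats 2, 4 and 5), with a narrow spread, and *Gphn* was highest there too, at 13.6 ± 1.48. *Glra2* held 44 of its 1438 GABA UMIs (3.06%) in that sub-cluster. *Glra2* was highest in the unnamed sub-cluster 20 (*Casr*, *Colec12*, *Adgrv1*), at 1.83 ± 0.112, where *Glra3* was lowest, at 0.706 ± 0.605. It was lowest in the unnamed sub-cluster 14 (*Sox6*, *Glis3*, *Pawr*), at 0.0413 ± 0.0150 from 5 UMIs in 187 nuclei.

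*Glrb* varied little, from 1.37 ± 0.288 in GABA sub-cluster 10 (*Nox4*, *Meis2*, *Ppp1r1c*) to 2.12 ± 0.627 in sub-cluster 3. The latter rested on rat 1 (2.84, against 1.84 and 1.69 in rats 2 and 5), and the 1.92 to 2.16 of sub-cluster 14 lay above those other values. *Gphn* was lowest in dopamine sub-cluster 5 (*Cck*, LOC100364435, *Nrgn*), at 5.30 ± 1.68, where *Gabbr1* was highest, at 5.38 ± 1.41. The nuclei of that sub-cluster were shallow, with a median of 2072.0 UMIs against 10101.5 and 7612.0 in dopamine sub-clusters 4 and 9, and the part of depth in both values was not tested. *Gabbr2* was highest in sub-cluster 2 (5.02 ± 0.833) and lowest in sub-cluster 20 (2.63 ± 0.292). Glutamate sub-cluster 15 (*Ttc29*, *Stk32a*, *Ntng2*), chosen after its values were seen, had 132 of its 137 nuclei from rat 2. Its pooled level of *Glra3* was 6.57 and of *Gphn* 15.2, with the neuronal glycine transporter gene *Slc6a5* among its leading genes, and the glutamate neurons of rat 2 were the ones with *Glra3* at 3.52. The part of this sub-cluster in that value was not tested.

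**Figure D5:**
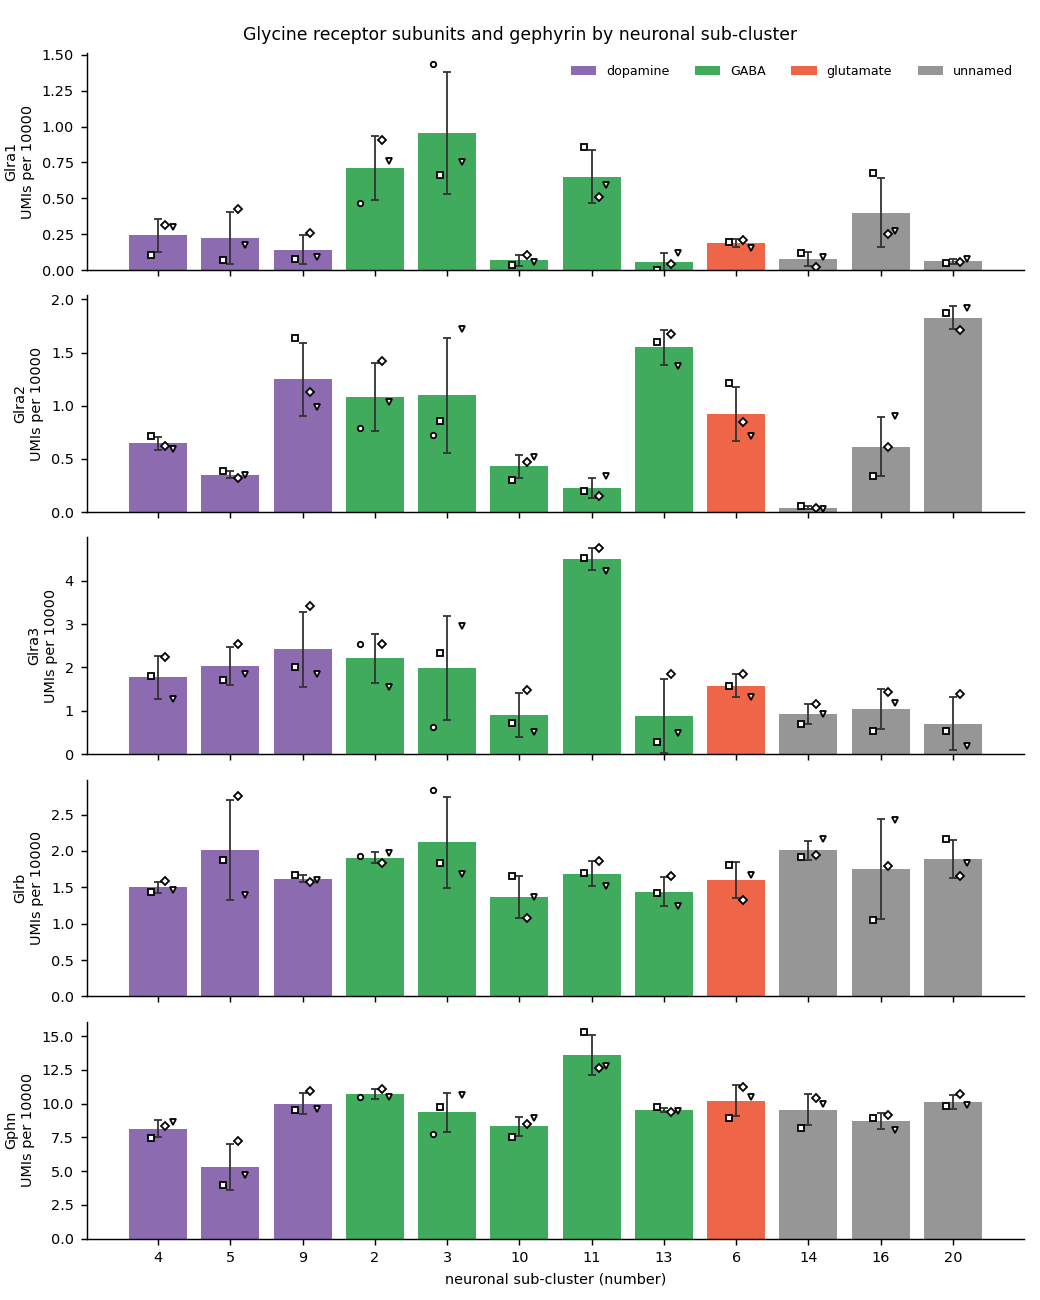
Levels (UMIs per 10000) of the glycine receptor genes and *Gphn* in the 12 neuronal sub-clusters with at least 20 nuclei in 3 or more rats, coloured by transmitter class. Bars are means, error bars SD, and points rats 1 (circle), 2 (square), 4 (diamond) and 5 (triangle). *Glra1* stood out in sub-clusters 2, 3 and 11 and *Glra3* in 11, while *Glrb* stayed between 1.37 and 2.12.

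Promoter sequences from RefSeq (assembly GRCr8, which need not be the build of the count files) were given for 6 of the 7 genes, all but *Glra1*. Stretches of 4 are shown, of gephyrin, the beta subunit and 2 alpha subunits, because they differ in CpG content. In the 300-base window around the start, CpG was found 41 times for *Gphn*, 47 times for *Gabbr2*, 32 times for *Gabbr1* and 28 times for *Glrb*. It was found 9 times for *Glra2* and 10 times for *Glra3*, near the median of 7.0 over 33469 promoters. The GC box letters GGGCGG, searched on both strands, occurred in all 6 windows and in 33.1% of all promoters. The 100 bases before the start are printed 5′ to 3′ on the strand of the gene, with CpG in capitals, for *Gphn* (chr6:102687553-102687652, plus strand), *Glrb* (chr2:168505615-168505714, minus strand), *Glra2* (chrX:32652087-32652186, plus strand) and *Glra3* (chr16:39857007-39857106, minus strand).
Gphn: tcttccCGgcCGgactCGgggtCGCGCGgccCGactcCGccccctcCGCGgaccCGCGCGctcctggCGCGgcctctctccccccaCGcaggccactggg
Glrb: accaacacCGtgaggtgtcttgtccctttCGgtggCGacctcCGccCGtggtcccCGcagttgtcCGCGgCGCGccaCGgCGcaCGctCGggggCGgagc
Glra2: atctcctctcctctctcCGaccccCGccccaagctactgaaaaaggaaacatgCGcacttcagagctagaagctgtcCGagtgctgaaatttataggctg
Glra3: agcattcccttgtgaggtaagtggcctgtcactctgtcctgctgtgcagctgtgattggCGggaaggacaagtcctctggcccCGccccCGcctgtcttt
CpG occurred 16, 15, 4 and 3 times in these stretches. With 6 genes this is a description, and no relation to level was tested.

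Across the 34 sums of class and rat, the members' patterns were compared on the log scale as a description, since sums share libraries and depth. The closest pair was *Glra2* and *Glra3* (Pearson's r = 0.88), followed by *Gabbr2* and *Gphn* (0.75) and *Glra1* and *Glra3* (0.74), whereas *Gabbr1* and *Gabbr2* reached 0.43. Among the other 12351 genes, the closest to *Gabbr1* were *Atp1b2* (0.93), *Sparcl1* and *Slc4a4* (0.91 each), and the closest to *Gabbr2* were *Wwc1* (0.96), *Pfkp* and *Lgi1* (0.95 each). *Glra1* lay closest to *Htr4* (0.85), *Glra2* to *Kif5c* (0.93), *Glra3* to *Dmtn* (0.95), *Glrb* to AABR07033270.1 (0.87) and *Gphn* to *Cpeb3* (0.94).

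Genes that work with the GABA-B receptor were read in the same fit. Of 13 effectors, 3 were higher, 1 was lower and 9 were not called between dopamine and GABA neurons, where 14.3% of all genes were called (median of the list 0.28, of all genes 0.05). *Kcnj6*, a potassium channel subunit opened by G proteins, was higher by 1.94 (SE 0.24, adjusted p = 1.67e-07) and its relative *Kcnj5* by 2.54 (SE 0.33), while *Kcnj3* was lower by -1.46 (SE 0.26, adjusted p = 5.80e-05). *Gnai1*, an inhibitory G protein subunit, was higher by 1.21 (SE 0.18). The level of *Kcnj6* was 3.0, 1.60, 2.18 and 2.02 UMIs per 10000 in the dopamine neurons of rats 2 to 5 and 1.05, 0.464, 0.150, 0.906 and 0.711 in the GABA neurons of rats 1 to 5, with no overlap. Against glutamate neurons the count was again 3 higher and 1 lower, beside 9.94% of all genes, with *Kcnj6* at 1.73 and *Kcnj3* at -1.87. Of 3 partners in the files, *Ajap1*, whose protein binds the GABA-B receptor, was higher in dopamine than in GABA neurons by 0.78 (SE 0.20, adjusted p = 0.00445), and *App* and *Pianp* were not called. *Kctd8*, *Kctd12*, *Kctd12b* and *Kctd16* were not analysed here.

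Of 11 genes of glycine supply and the remaining alpha subunit, 8 were tested. Between dopamine and GABA neurons 1 was called: *Slc32a1*, the vesicular transporter of GABA and glycine, was lower in dopamine neurons (-2.43, SE 0.28), with a GABA level of 3.68 in rat 3 and 0.230 to 1.07 in the others. *Slc32a1* is also a marker that named the GABA class. Against astrocytes 5 of the 8 were called, all lower in neurons, a share near the 57.3% of all genes called in this contrast. *Slc6a9*, which takes up glycine, was lower by -3.55 (SE 0.15), *Slc7a10* by -5.98 (SE 0.23) and *Gldc*, of the glycine cleavage system, by -4.08 (SE 0.35), each with an adjusted p of 3.02e-12 or less. Against oligodendrocytes 7 of the 8 were called, all lower, beside 77.1% of all genes, with *Slc6a9* at -3.74 (SE 0.13). Such shares are not read as results about the list. The neuronal glycine transporter gene *Slc6a5* did not pass the filter. It had 114 UMIs in GABA neurons, 73 in glutamate neurons, all of rat 2, and 3 in dopamine neurons.

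Among 12 gephyrin partners, *Dynll1* had the smallest adjusted p between dopamine and GABA neurons and was not called (0.42, SE 0.15, adjusted p = 0.0599). Against oligodendrocytes, where 77.1% of all genes were called, 6 were higher in neurons and 6 lower (median of the list 0.26, of all genes -0.32). *Iqsec3* (3.17, SE 0.24) and the adhesion protein gene *Nlgn2* (2.59, SE 0.18) led the first group, and *Gabarap* (-1.50, SE 0.12) and *Dynll1* (-1.40, SE 0.11) the second. Against astrocytes, where *Gphn* itself was not called and 57.3% of all genes were, 6 partners were higher in neurons and 4 lower, among them *Insyn2a* at -2.32 (SE 0.26). In the molybdenum cofactor list, 2 of 6 tested genes were lower in neurons than in astrocytes and 1 was higher, a share below that background: *Mocs1*, an early enzyme of the pathway, was at -1.39 (SE 0.19), and *Aox1*, an enzyme that carries the cofactor, at -7.25 (SE 0.27) with 1.67 UMIs per 10000 in astrocytes and at most 0.0162 on average in a neuronal class.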

How the data were processed

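Nuclei of the VTA from 5 rats were sequenced as 1 snRNA-seq library per rat (10x Genomics 3' chemistry). The authors deposited unfiltered matrices of raw UMI counts per gene and barcode, made with Cell Ranger (8.0.1 per the submitters' processing notes, while the file headers name an older release). The genome build is not given in the sources used here. The authors' own filtering, removal of free RNA and cell names were not used.

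Library totals were 10193355 to 88576210 UMIs, and low levels in the smaller classes rest on a few UMIs. Doublets were marked by simulated pairs (1068 nuclei). Nuclei were clustered on 2000 variable genes without the 7 genes and mitochondrial genes (10 principal components, or 30 for neurons, Leiden resolution 1, leidenalg 0.10.2, Python 3.11.15). Of 24 clusters and 31 neuronal sub-clusters, 19 and 21 were named from markers, by thresholds set after the clusters were seen, and 5333 nuclei entered no class, 3705 in unnamed clusters and 1628 in unnamed sub-clusters of neurons. Counts were summed per rat and class and tested with edgeR 4.0.16 in R 4.3.3 (quasi-likelihood, TMM scaling, filterByExpr, rat as a block). "Neurons" is the mean of the 3 neuronal classes in edgeR. In values per rat it is the mean of those with a sum. That left GABA neurons alone in rat 1, and dopamine and GABA neurons in rat 3. The edgeR step was run on simulated counts with changes placed in the dopamine sums and no differences between rats other than depth.

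The same rat number means the same animal: deviations of sums from their class means correlated between classes of 1 rat with a median of 0.284 (0.057 to 0.753 over 105 pairs), and between rats with a median of -0.0543 (399 pairs). Free RNA came from barcodes under 100 UMIs. Alternatives were DESeq2 1.42.0, other scalings, no filter, no block, each rat left out, deeper nuclei, doublets kept, free RNA subtracted, nuclei typed by their own markers and libraries centred. A minimum of 10 nuclei per sum was added after seeing the data.

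The 7 genes, markers and pathway lists were chosen with earlier results of these data known. Genes named are these, up to 4 of each list with the smallest p, the 3 most like each of the 7 across sums, and the 3 leading genes of sub-clusters in which 1 of the 7 was highest or lowest. Others are named as chosen after their values were seen.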

Additional observations from a re-analysis of the deposited data

Results flagged for a closer look

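*Gphn* in the microglia of rat 3 was the sole sample of the 49 groups of 4 or 5 rats that lay far from the others of its group. It held 6.96 UMIs per 10000 (92 UMIs) against 1.88 to 3.10 in the microglia of rats 1, 2, 4 and 5, a gap of 0.760 of the whole range, where the critical value of Dixon's test for 5 samples is 0.71. Chance alone marks about 1 in 20 such groups. The marker levels of these nuclei are given with the result above.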

How the results depend on the processing

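Of the 1008 differences of the 7 genes over contrasts and alternatives, 888 kept their sign and their side of the threshold, 33 lost and 10 gained the call, 65 turned sign with neither value called, and 12 turned sign with at least 1 value called. The sign of *Gabbr1* between neurons and oligodendrocytes turned with DESeq2 (0.01), with its size factors (0.02), without scaling beyond the total (0.17), without rat 5 (0.01; -0.10 without rat 3), with free RNA subtracted (0.86) and with libraries centred (0.06). Against microglia *Gabbr1* was 3.31 with free RNA subtracted, 0.43 with nuclei typed by their own markers and 0.35 with libraries centred. *Glrb* was 0.39 against oligodendrocytes without scaling beyond the total, and with libraries centred 0.05 between neurons and OPCs and -0.02 between OPCs and oligodendrocytes. The *Glrb* to *Gphn* ratio against microglia was 0.84 with free RNA subtracted. The cause was not tested.

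Without the replicate block, genes called fell to 751 between dopamine and GABA neurons (0 of the 7), 476 between dopamine and glutamate, 47 between GABA and glutamate neurons, 4022 between neurons and OPCs, 3836 between OPCs and oligodendrocytes and 4287 between astrocytes and oligodendrocytes. Among the 7 genes, apart from the 2 calls named with their results, the call of *Gabbr1* was lost without the block between neurons or OPCs and oligodendrocytes (adjusted p = 0.158 and 0.383 in edgeR), and no other call changed. With free RNA subtracted the neuronal contrasts called 706 (0 of the 7), 417 and 49 genes, and with nuclei typed by their own markers dopamine neurons differed in 1026 genes from GABA and in 690, with 1 of the 7, from glutamate neurons. GABA and glutamate neurons differed in 525 genes without a filter and 412 with doublets kept. Leaving out 1 rat gave 1089 to 1751, 650 to 1315 and 114 to 290 genes in these 3 contrasts, the lowest without rat 5 in each, and 0 to 1 of the 7 in the last (1 without rat 2). Without rat 2 or 4, dopamine and glutamate neurons differed in 799 or 775 genes, and without rat 4, GABA and glutamate neurons in 168. Shares of nuclei with a UMI cannot be given with free RNA subtracted from sums.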
